A study of Mus musculus with 14 samples.

Results

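Oocytes whose only AGO2 could not cleave RNA were compared directly with oocytes that lacked AGO2, using the 3 libraries labelled Ago2 ADH and the 2 labelled Ago2 null. These 5 of the 14 libraries of the series were chosen by their labels alone. Each library was made from 20 full-grown oocytes still arrested with an intact germinal vesicle (GV), collected from females of 4 to 6 weeks given 5 IU of equine chorionic gonadotropin 48 h earlier. Oocytes had been stripped of cumulus cells by pipetting and pooled from 3 mice by the labels, or 3 or 4 by the methods. Ago2 ADH females carried 1 floxed allele and 1 ADH knock-in allele together with Zp3-Cre, a transgene active in growing oocytes, so that the oocyte kept the ADH allele alone. Ago2 null females carried 2 floxed alleles and the same Cre. Ago2 fl/fl oocytes, labelled wild-type, had the floxed gene undeleted and their levels are set beside both genotypes. The strain background was mostly C57BL6, from crosses of different transgenic strains. The lane tag of the deposited data was the same within each of these genotypes and differed between them, and these cannot be told apart. The series also held 3 Dicer WT and 3 Dicer KO libraries, which are used in places below. Dicer KO oocytes came from females with Dicer deleted in oocytes only, and Dicer WT oocytes were their wild-type counterparts.

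AGO2 is the mammalian Argonaute with strong slicer activity, the cleavage of an RNA that is paired to the bound small RNA. In ADH the first aspartate of the DDH catalytic motif is an alanine, which removes slicing and leaves a protein that can still bind small RNAs. Such a protein can also recruit TNRC6 proteins and, through them, the deadenylases that shorten poly(A) tails, which is how microRNAs (miRNAs) mostly act. Mouse oocytes hold abundant endogenous siRNAs (endo-siRNAs), which pair fully with their targets and act through slicing, whereas miRNAs have little effect in them. The direct comparison addresses what AGO2 protein does in oocytes when it cannot slice.

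The miRNAs used to group transcripts are shown here because a match to their seed is what the grouping rests on. Their mature sequences are from RefSeq (GRCm38), 5′ to 3′, with the seed (bases 2 to 8) in capitals.
let-7a-5p: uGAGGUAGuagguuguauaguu
miR-30c-5p: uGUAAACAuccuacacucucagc
miR-16-5p: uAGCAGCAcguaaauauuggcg
miR-22-3p: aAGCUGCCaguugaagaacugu
miR-20a-5p: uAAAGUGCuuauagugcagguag
The 5 seeds differ from each other, so each defines its own group. A match is the reverse complement of the 7 seed bases on the transcript strand of an annotated 3′ UTR. The letters searched were CTACCTC for let-7a-5p, TGTTTAC for miR-30c-5p, TGCTGCT for miR-16-5p, GGCAGCT for miR-22-3p and GCACTTT for miR-20a-5p. A match is a description of the letters and does not show that a miRNA binds there.

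After 1 transcript had been kept for each of 20638 genes, the 5 libraries held from 31366673 to 40557213 counts. Levels are in CPM, the standard unit in which counts are divided by that total and brought to a common scale, adjusted by TMM normalization over all 14 libraries. They compare libraries for 1 gene, and not genes with each other, since they are not per length. Differences are log2 fold changes of Ago2 ADH over Ago2 null from edgeR's quasi-likelihood test on counts, each with its standard error (SE). A gene is called when its Benjamini-Hochberg adjusted p is within a false discovery rate (FDR) of 1%. The 25 oocyte markers summed to 38719 to 39770.3 CPM in Ago2 ADH and 39191 to 42309.6 CPM in Ago2 null libraries, with none at 0 in either group. The 19 granulosa and cumulus cell markers summed to 95.3 to 100.9 CPM in Ago2 ADH and 82.4 to 89.0 CPM in Ago2 null, and Ptx3 was at 0 in both Ago2 null libraries. The 13 stroma and blood markers measured summed to 55.8 to 60.9 CPM in Ago2 ADH and 45.7 to 47.7 CPM in Ago2 null. Ptprc, Cdh5 and Hbb-bt, which mark leukocytes, endothelium and red cells, were at 0 in all 5. Of the other hemoglobin genes, Hbb-bs was at 0 in every Ago2 ADH library but not in both Ago2 null libraries. Hba-a1 and Hba-a2 were at 0 in both Ago2 null libraries but not in every Ago2 ADH library. Both sums were higher in every Ago2 ADH library than in either Ago2 null library, and their part in the results below was not tested. Pecam1 alone made up most of the stroma and blood sum, at 54.4 to 58.8 CPM in Ago2 ADH and 46.7 and 43.5 CPM in Ago2 null. In such pooled RNA, fewer cells of a type and less RNA per cell cannot be told apart.

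Few genes were called between the transcriptomes of the 2 genotypes, which does not show that few differed. Of 14403 genes tested, 22 were called (0.153%), of which 14 had more (0.0972%) and 8 less (0.0555%) transcript in Ago2 ADH oocytes. At an FDR of 5% there were 42 (0.292%), and 1441 (10%) had an unadjusted p under 0.05. The log2 fold change was under 0.25 in size for 74.5% of the genes and at least 1 for 2.89%. The levels did not overlap between the 2 genotypes for 25.8% of all genes tested and for each of the 22 called. Set beside Ago2 fl/fl libraries, which both genotypes share as controls, 5735 of 13979 genes (41%) were called in Ago2 ADH oocytes, 20.8% higher and 20.2% lower. In Ago2 null oocytes these were 5381 of 14301 (37.6%), 18.6% higher and 19.1% lower. In counts simulated for the direct comparison, the test recovered 38 of 40 genes raised 2-fold, 29 of 40 lowered 2-fold and 27 of 40 raised 1.5-fold. The changed genes were drawn from those with a mean above 1 CPM, so recovery at lower levels was not covered. Without Ago2 null replicate 2 there were 4 calls, Gpr20, Slc4a3 and Wdfy1 among them, which were also the ones not lost with any other library left out. The other 18 were lost with at least 1 library left out and kept their direction. Libraries came from separate collections by the methods, and the p-values measure the spread between them.

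**Figure D1:**
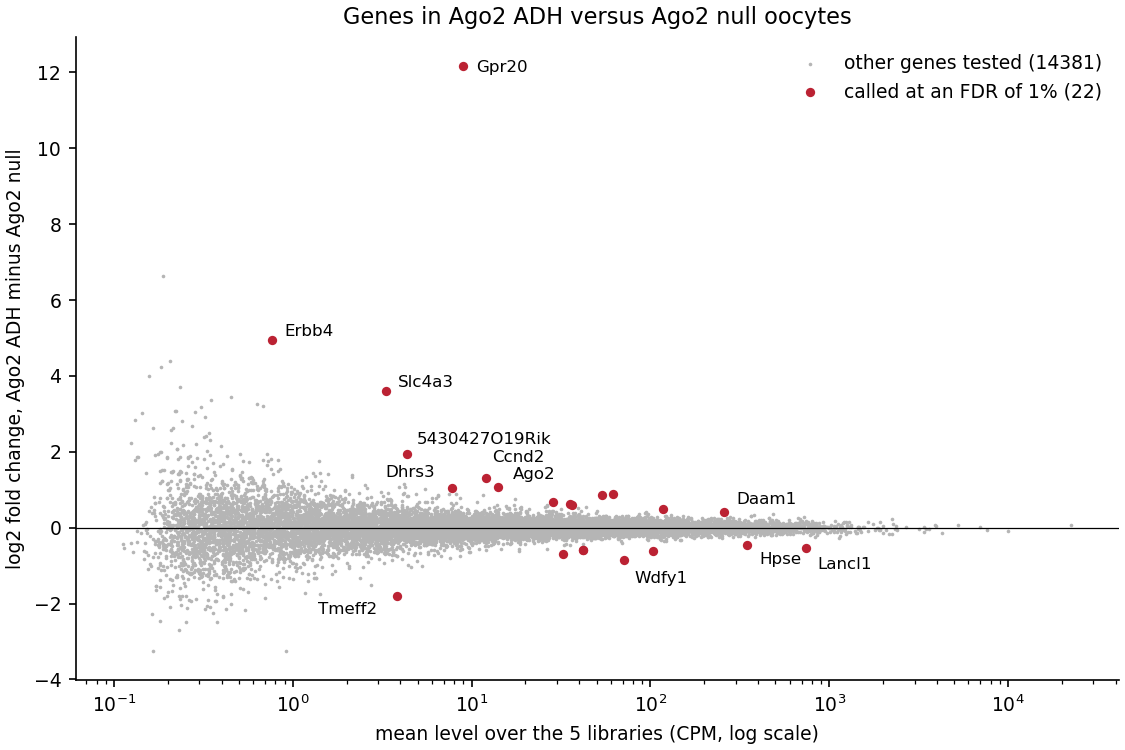
Log2 fold change of Ago2 ADH minus Ago2 null (vertical axis) against the mean level over the 5 libraries in CPM (horizontal axis, log scale), with 1 point for each of 14403 genes tested and the 22 called genes in red. Most genes lie near 0, with a wider scatter at low levels, and Gpr20 stands highest at a fitted value of 12.2, which depends on the prior count because it had no counts in Ago2 null libraries.

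Ago2 itself came first as a check of the labels. The gene lies at chr15:73101625-73184947 on the minus strand of GRCm38 and had 33.2, 34.7 and 32.7 CPM in Ago2 fl/fl, 18.8, 17.6 and 16.8 CPM in Ago2 ADH, and 9.79 and 7.12 CPM in Ago2 null libraries. The 3 genotypes did not overlap, with Ago2 fl/fl highest and Ago2 null lowest. The log2 fold change of Ago2 ADH over Ago2 null was 1.07 (SE 0.149, adjusted p = 0.00131 from edgeR), and without Ago2 null replicate 2 it was 0.86 with an adjusted p of 0.108. Counts are per transcript, so those left in Ago2 null oocytes cannot be assigned to deleted or remaining exons.

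None of the other Argonaute genes passed the test. Ago3 had 129.5, 133 and 124 CPM in Ago2 ADH and 127 CPM in both Ago2 null libraries, a log2 fold change of 0.02 (SE 0.0681). Ago1 had 1.37 to 1.79 CPM in Ago2 ADH and 0.879 and 1.84 CPM in Ago2 null, and its groups overlapped. Ago4 had 1.47 to 2.09 CPM in Ago2 ADH and 1.44 and 1.84 CPM in Ago2 null, and also overlapped. Dicer1, whose product makes miRNAs and siRNAs, had 1327, 1345 and 1368 CPM against 1295 and 1267 CPM (log2 fold change 0.07, SE 0.0554). In Ago2 fl/fl oocytes, Dicer1 had 853 to 889 CPM, so both genotypes lay above that range by a like amount.

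The called genes fell into groups by where Ago2 fl/fl oocytes stood, which was not used to call them. In 11, both genotypes were called against Ago2 fl/fl in the same direction, and 1 genotype lay further away than the other. In 6, only Ago2 null was called against Ago2 fl/fl, and in 4 only Ago2 ADH. The mean of Ago2 ADH lay between the other means in 15 of all 22, and that of Ago2 fl/fl in 7, while that of Ago2 null lay between in 0. Over all genes tested these shares were 49.3%, 11.3% and 39.4%. Genes called between Ago2 ADH and Ago2 null must lie apart in those genotypes, so these counts are a description.

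**Figure D2:**
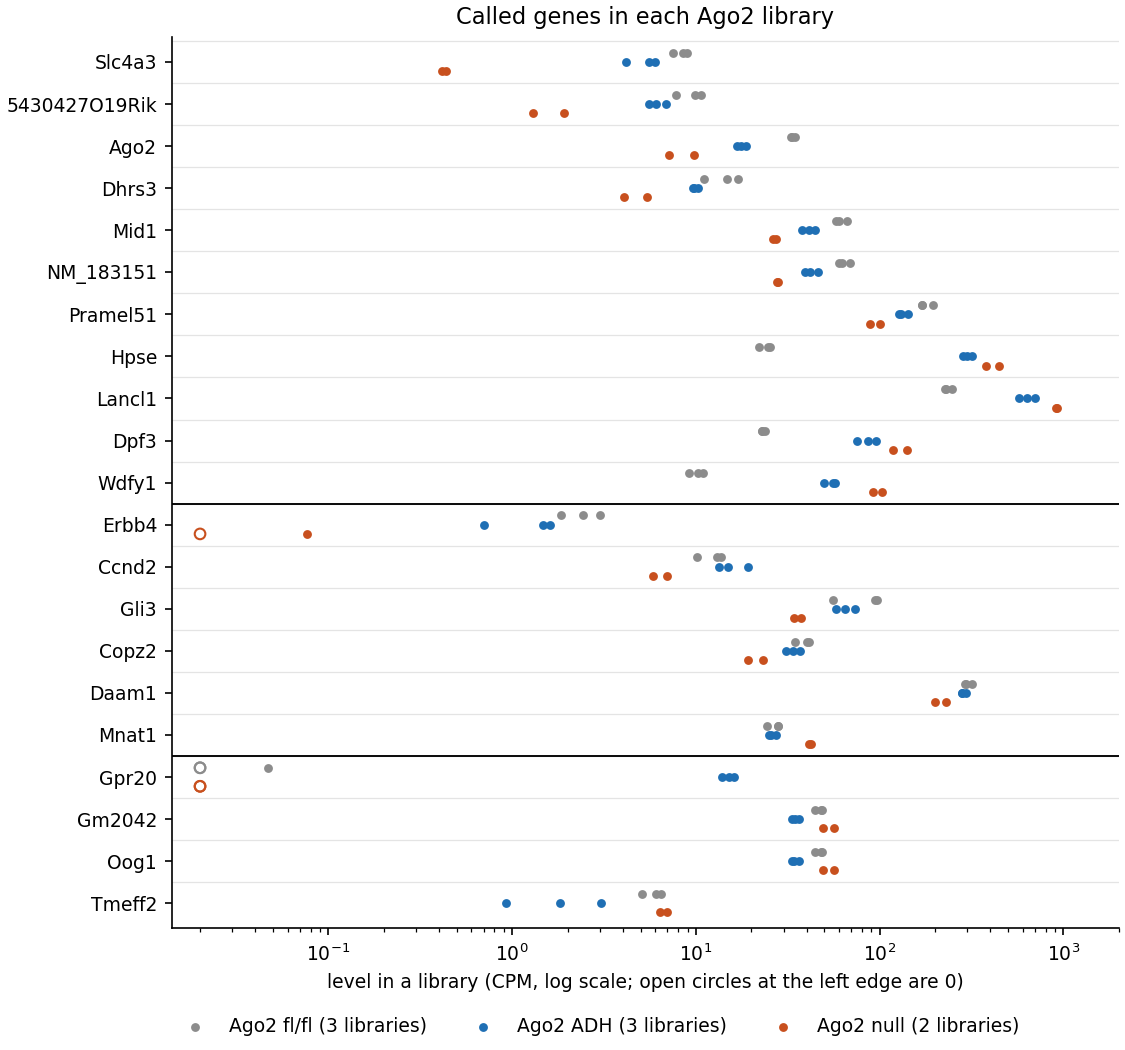
Level of called genes in each Ago2 library (horizontal axis, CPM on a log scale), with 1 point per library for 3 Ago2 fl/fl, 3 Ago2 ADH and 2 Ago2 null libraries, and open circles at the left edge for 0. From the top, lines separate genes that differed from Ago2 fl/fl in the same direction in both genotypes (11), in Ago2 null only (6) and in Ago2 ADH only (4).

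Among the 11 genes that moved the same way in both genotypes, 7 were below Ago2 fl/fl, all with the lower level in Ago2 null. Slc4a3, a chloride-bicarbonate exchanger gene, had 4.17, 5.98 and 5.53 CPM in Ago2 ADH and 0.415 and 0.435 CPM in Ago2 null, beside 7.55 to 8.94 CPM in Ago2 fl/fl. Its groups lay far apart, with a mean 12.3-fold higher in Ago2 ADH (log2 fold change 3.61, SE 0.305, adjusted p = 3.11e-06 from edgeR). Dhrs3, which codes for a retinal reductase, had 9.72, 10.2 and 9.65 CPM against 4.05 and 5.40 CPM, with 11.1 to 16.9 CPM in Ago2 fl/fl. Its log2 fold change was 1.06 (SE 0.173, adjusted p = 0.00701 from edgeR), and the lowest Ago2 ADH library held more than the highest Ago2 null library. The X-linked 5430427O19Rik had 6.90, 6.03 and 5.53 CPM against 1.90 and 1.31 CPM, a log2 fold change of 1.93 (SE 0.237). The ubiquitin ligase gene Mid1, also X-linked, had 41.0, 38.0 and 44.4 CPM against 27.2 and 26.3 CPM, a log2 fold change of 0.62 (SE 0.102). The counts of Mid1 were 95.7% to 98.8% of those of a transcript listed as NM_183151 without a gene symbol. Reads shared between these cannot be told apart, and they may be 1 measurement. Pramel51, of the multigene Prame family, had 127, 142 and 131 CPM against 88.5 and 101 CPM (log2 fold change 0.49). Reads that also align to its near copies can be missing, because alignments that were not unique were tallied apart from the transcripts. Ago2 is the seventh of these genes. Slc4a3 stayed called whichever library was left out. The call of 5430427O19Rik was lost only without Ago2 null replicate 2, and that of Mid1 without any library except Ago2 ADH replicate 2. Dhrs3 and Pramel51 were lost whichever of the 5 libraries was left out.

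The other 4 of the 11 were above Ago2 fl/fl in both genotypes, and each was higher still in Ago2 null. Wdfy1, which codes for an endosomal adaptor of Toll-like receptor signalling, had 49.9, 57.3 and 55.8 CPM in Ago2 ADH and 103 and 92.3 CPM in Ago2 null, beside 9.13 to 10.9 CPM in Ago2 fl/fl. The log2 fold change was -0.85 (SE 0.0837, adjusted p = 2.57e-05 from edgeR), and Ago2 null libraries were all above Ago2 ADH. Lancl1, coding for a glutathione-binding protein, had 632, 699 and 569.5 CPM against 909.6 and 920.3 CPM (log2 fold change -0.54, SE 0.0692), beside 226 to 248 CPM in Ago2 fl/fl. Hpse, the heparanase gene, had 319, 299 and 283 CPM against 377 and 448 CPM (log2 fold change -0.46, SE 0.0754), where Ago2 fl/fl had only 21.9 to 25.3 CPM. The difference between the 2 genotypes was therefore small beside the distance of both from Ago2 fl/fl, where the log2 fold changes were 3.69 for Ago2 ADH and 4.14 for Ago2 null. Dpf3, a subunit gene of BAF chromatin remodelling complexes, had 74.98, 94.9 and 86.7 CPM against 118 and 141 CPM (log2 fold change -0.60, SE 0.0942). Wdfy1 stayed called without Ago2 null replicate 2, and adjusted p-values from edgeR were 0.0239 for Lancl1 and 0.291 for Hpse and Dpf3.

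In 6 genes, the Ago2 null level departed from Ago2 fl/fl and that of Ago2 ADH was not called. Ccnd2, the D-type cyclin of granulosa and other dividing cells, had 13.4, 14.99 and 19.2 CPM in Ago2 ADH and 6.96 and 5.84 CPM in Ago2 null, beside 13.1, 10.1 and 13.8 CPM in Ago2 fl/fl. Every Ago2 ADH library was above both Ago2 null libraries, with a log2 fold change of 1.30 (SE 0.169, adjusted p = 0.000577 from edgeR). Against Ago2 fl/fl, the log2 fold change of Ccnd2 was -0.91 in Ago2 null (adjusted p = 0.000175) and 0.41 in Ago2 ADH (adjusted p = 0.0226). Erbb4, a neuregulin receptor gene, had 138 counts in the Ago2 ADH libraries together and 3 in the Ago2 null libraries. The ratio of its levels was 32.7, with a 95% interval of 11.0 to 160.4 that covers counting error only, and the adjusted p from edgeR was 0.00822. Gli3, a transcription factor of Hedgehog signalling, had 57.8, 73.1 and 65.1 CPM against 37.3 and 34.2 CPM (log2 fold change 0.87, SE 0.10). Its Ago2 fl/fl libraries varied widely, at 55.6, 96.8 and 94.3 CPM. With 1 library left out, the call of Ccnd2 was lost without Ago2 null replicate 1 or 2, and that of Gli3 without Ago2 null replicate 2. Erbb4 was lost without either Ago2 null library and without Ago2 ADH replicate 2 or 3.

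The remaining genes of this kind differed by less. Mnat1, a subunit gene of the CDK-activating kinase, was the one higher in Ago2 null, with 41.3 and 42.4 CPM against 24.8, 27.1 and 25.7 CPM in Ago2 ADH and 24.2 to 28.1 CPM in Ago2 fl/fl. Its log2 fold change was -0.70 (SE 0.0963, adjusted p = 0.00129 from edgeR), and Ago2 ADH libraries lay within the range of Ago2 fl/fl. Daam1, a formin gene of actin assembly, had 282, 294 and 281 CPM against 230.1 and 200.4 CPM (log2 fold change 0.40, SE 0.0685). Copz2, coding for a subunit of the COPI vesicle coat, had 30.8, 37.0 and 33.6 CPM against 23.1 and 19.1 CPM (log2 fold change 0.68, SE 0.115). Neither Daam1 nor Copz2 overlapped between the 2 genotypes. Without Ago2 null replicate 2, adjusted p-values from edgeR were 0.0625 for Mnat1, 0.291 for Daam1 and 0.390 for Copz2.

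In 4 genes only Ago2 ADH departed from Ago2 fl/fl, and Gpr20, an orphan G protein-coupled receptor gene, had the lowest p of all. Its levels were 16.05, 13.9 and 15.1 CPM in Ago2 ADH, from 642, 558 and 481 counts, and 0 in both Ago2 null libraries. Ago2 fl/fl replicate 1 had 2 counts and the other Ago2 fl/fl libraries none. Against a floor of 3 counts over both Ago2 null libraries, Gpr20 was at least 398-fold higher in Ago2 ADH (adjusted p = 1.61e-11 from edgeR). Dicer WT libraries had 0.717 to 1.62 CPM of Gpr20 and Dicer KO libraries 0.964 to 4.36 CPM, so these oocytes, with intact Ago2 genes, held a level between those of Ago2 null and Ago2 ADH. Oog1, an oocyte-specific gene of the Prame family, was lower in Ago2 ADH, with 33.3, 36.4 and 34.4 CPM against 48.9 and 56.1 CPM in Ago2 null and 44.6 to 48.4 CPM in Ago2 fl/fl (log2 fold change -0.60, SE 0.0943). The counts of Oog1 were 99.6% to 100% of those of Gm2042 in the Ago2 ADH and Ago2 null libraries, so they cannot be told apart and are taken as 1 signal. Which reads they share was not measured. Tmeff2, coding for a transmembrane protein with follistatin domains, had 0.925, 3.03 and 1.82 CPM in Ago2 ADH and 6.35 and 6.96 CPM in Ago2 null (log2 fold change -1.79, SE 0.306), beside 5.07 to 6.42 CPM in Ago2 fl/fl. Without Ago2 null replicate 2 the adjusted p from edgeR was 0.291 for Oog1, Gm2042 and Tmeff2, and Gpr20 stayed called in each of the fits that left out 1 library.

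A further 20 genes passed an FDR of 5% and not of 1%, 10 in each direction. Krt12, a keratin gene, had 47.6, 46.8 and 40.6 CPM in Ago2 ADH and 31.9 and 31.0 CPM in Ago2 null, where Ago2 fl/fl had 112 to 122 CPM. Its groups did not overlap, and the log2 fold change was 0.51 (adjusted p = 0.0259 from edgeR). Lmx1a, a homeobox gene, had 30.1, 29.9 and 42.2 CPM against 51.6 and 52.8 CPM (adjusted p = 0.0358), with 4.90 to 5.54 CPM in Ago2 fl/fl. Bicc1, coding for an RNA-binding protein that recruits deadenylases, had 29.8, 32.1 and 30.2 CPM against 21.7 and 18.9 CPM (adjusted p = 0.0174). Gmnn, the gene of the replication licensing inhibitor geminin, had 62.6, 61.7 and 59.3 CPM against 76.4 and 86.2 CPM (adjusted p = 0.0358). Foxn1, at -3.25, and Pramel20, at -1.51, had larger log2 fold changes from low levels, with at most 0.45 CPM of Foxn1 in Ago2 ADH against 1.76 and 2.25 CPM in Ago2 null. Slc66a2, Tctex1d1, Afp and Synpo had log2 fold changes of -1.001, 0.41, -0.80 and 0.87.

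The ADH and the floxed alleles are both at Ago2, and Gpr20, at chr15:73688497-73707505, begins 504 kb from the end of Ago2. Of 80 other genes tested within 5 Mb of Ago2, Gpr20 was the one called (1.25%, beside 0.153% of all genes), and of 15 within 2 Mb it was again the one called. The median log2 fold change of the 80 was -0.0049, with 40 above 0, and 6 had an unadjusted p under 0.05. The nearest neighbours Chrac1, Ptk2 and Trappc9 had log2 fold changes of -0.40 (adjusted p = 0.738), -0.04 and 0.03. Trappc9, a subunit gene of a vesicle-tethering complex, had 3358, 3869 and 3066 CPM in Ago2 ADH and 3349 and 3362 CPM in Ago2 null, beside 793 to 873 CPM in Ago2 fl/fl. The gene next to Ago2 that was far above Ago2 fl/fl in both genotypes thus overlapped between them.

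On both sides of Gpr20 the levels were close. Slc45a4, a sugar transporter gene, had 4.999, 4.17 and 5.88 CPM in Ago2 ADH against 3.39 and 4.33 CPM in Ago2 null (log2 fold change 0.37, adjusted p = 0.595 from edgeR). Ptp4a3, a phosphatase gene 538 kb from Ago2, had 1.92, 1.81 and 2.17 CPM against 2.03 and 1.89 CPM. Both overlapped between the groups. Adgrb1, an adhesion G protein-coupled receptor gene, had 0.775, 1.39 and 0.786 CPM against 0.195 and 0 CPM, which did not overlap and did not pass the test (adjusted p = 0.103 from edgeR), and it had 0.702 to 0.963 CPM in Ago2 fl/fl. Dennd3, Col22a1 and Fam135b had log2 fold changes of -0.02, -0.38 and 0.26, none of which passed.

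**Figure D3:**
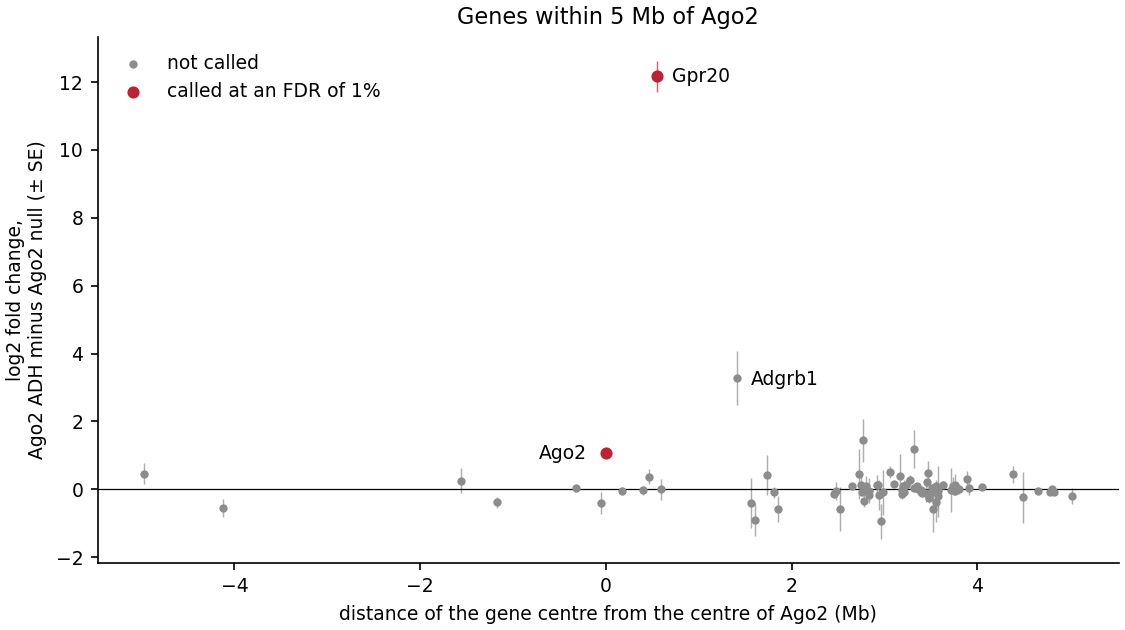
Log2 fold change of Ago2 ADH minus Ago2 null with its SE (vertical axis) for Ago2 and 80 tested genes within 5 Mb of it, by the distance between gene centres in Mb (horizontal axis). Ago2 and Gpr20, in red, are called at an FDR of 1%, Adgrb1 is the highest of those not called, and the rest lie around 0.

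By chromosome, the called genes were unevenly placed, and this was looked at after their values were seen. Chromosome 12 held 7 of 484 tested genes called (1.45%) and chromosome 1 held 5 of 856 (0.584%), beside 0.153% over all genes. Chromosomes X, 15 and 13 were also above that share, at 0.382%, 0.357% and 0.184%, from 2, 2 and 1 called genes. Daam1, Mnat1, Dpf3, Oog1, Gm2042 and Pramel51 are among those on chromosome 12, where Oog1 and Gm2042 are 1 signal counted as 2 genes. On chromosome 1, Tmeff2, Lancl1, Erbb4, Slc4a3 and Wdfy1 lay within 28.9 Mb, from 50.9 to 79.8 Mb. The 693 genes tested on this chromosome outside that stretch hold no call by construction. Slc4a3 and Wdfy1 were the calls left on chromosome 1 without Ago2 null replicate 2. A stretch drawn around called genes holds them by construction, so the other genes in it were counted. With the called genes left out, 21 of 158 genes in it (13.3%) had an unadjusted p under 0.05, beside 9.38% in the rest of chromosome 1. By whole chromosome, without Y and its 1 tested gene, the share ran from 8.64% to 11.98%, the highest on chromosome 12. The genes of the chromosome 1 stretch lay in either direction, with a median log2 fold change of -0.03. Mid1 and 5430427O19Rik are on chromosome X, and Dhrs3, Hpse, Ccnd2, Copz2 and Gli3 are on chromosomes 4, 5, 6, 11 and 13.

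**Figure D4:**
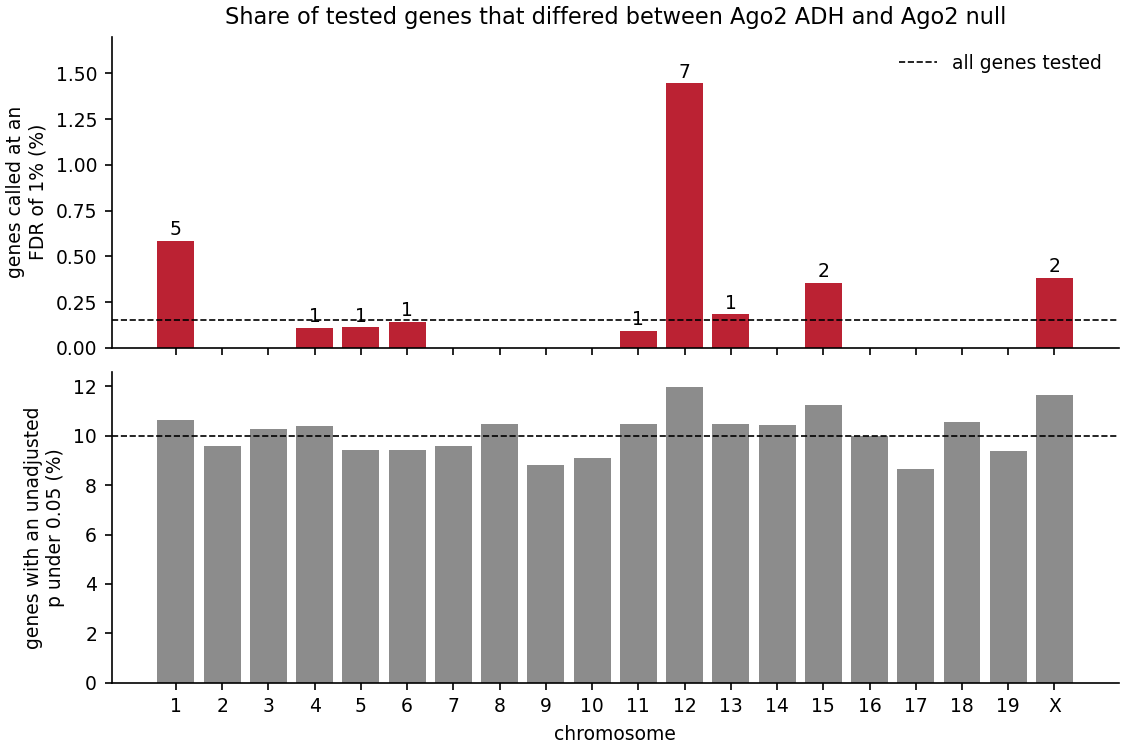
Share of tested genes called at an FDR of 1% (top, in percent, with the number called above each bar) and with an unadjusted p under 0.05 (bottom, in percent) by chromosome, Y with its 1 tested gene left out, with dashed lines at the shares of all genes tested, 0.153% and 10%. Chromosomes 12 and 1, with 7 and 5 called genes, stand highest above the line in the top panel, as do chromosomes X, 15 and 13 with 2, 2 and 1, while the lower panel runs from 8.64% to 11.98%.

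Genes grouped by miRNA seed matches showed medians close to 0. A match to the let-7a-5p seed was found in 8.86% of tested 3′ UTRs, and matches to miR-30c-5p, miR-16-5p, miR-22-3p and miR-20a-5p in 14.3%, 21.6%, 13.5% and 12.7%. The median log2 fold change was 0.0039 over 1238 genes with a let-7a-5p match and 0.014 over 1998 with a miR-30c-5p match. It was 0.0087 over 3021 genes with a miR-16-5p match, 0.021 over 1891 with a miR-22-3p match and 0.016 over 1777 with a miR-20a-5p match. Among genes with a match to any of the 5, 13 of 6377 were called (0.204%), and among genes with none, 8 of 7602 (0.105%), beside 0.153% over all genes. The medians of these groups were 0.0073 and -0.0087, and 51.9% and 48.1% of their genes lay above 0.

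Of the 21 called genes with an annotated 3′ UTR, 13 had a match, 9 of them higher and 4 lower in Ago2 ADH oocytes. Of all 13979 tested genes with an annotated 3′ UTR, 6377 had a match. A miR-30c-5p match was held by 7 called genes, 0.35% of 1998 tested, beside 0.153% of all genes. These were Wdfy1, Gli3, 5430427O19Rik, Lancl1, Ago2, Erbb4 and Tmeff2, which went in both directions. A miR-16-5p match was held by 7 called genes, 0.232% of 3021 tested, beside the same 0.153%. These were Slc4a3, Wdfy1, Ccnd2, Mnat1, Ago2, Erbb4 and Daam1, again in both directions. Gpr20 had matches to let-7a-5p and miR-20a-5p. Ccnd2 was the called gene on the list of let-7 targets, and its sites are shown because its 3′ UTR, of 5173 bases on the minus strand of chromosome 6, held no let-7a-5p match in the transcript measured. It held 1 match each to miR-16-5p and miR-20a-5p, given with 14 bases before and 1 after, the match in capitals.
miR-16-5p site, chr6:127128541-127128562: aatgtttcacggtgTGCTGCTa
miR-20a-5p site, chr6:127129339-127129360: attccattagaaaaGCACTTTg
The sequences are from the GENCODE transcript of GRCm38, read 5′ to 3′ along the transcript. The miR-16-5p match is followed by an A, which extends it to 8 bases, and the miR-20a-5p match is not.

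Known let-7 targets were described as a list, since let-7 is a miRNA family with many tested targets. Of 20 tested, 1 was called, Ccnd2 (5%, beside 0.153%), and the median log2 fold change was 0.09 with 13 above 0. Hmga2, the chromatin protein gene with many let-7 sites, had 159, 159.8 and 167 CPM in Ago2 ADH and 140.02 and 153 CPM in Ago2 null, which did not overlap and did not pass the test (log2 fold change 0.14, adjusted p = 0.530 from edgeR). Arid3b, a DNA-binding protein gene, had 38.1, 37.0 and 39.5 CPM against 34.6 and 28.7 CPM (adjusted p = 0.384). Cdc34, a ubiquitin-conjugating enzyme gene, had 102, 108 and 101 CPM against 115 and 119 CPM (adjusted p = 0.392), the other direction. Trim71, a let-7 target that also acts with Argonautes, had a log2 fold change of 0.11.

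A list of 10 genes matched by oocyte endo-siRNAs had near-equal levels in the 2 genotypes. It was a chosen list and smaller than the set of top endo-siRNA source genes that the study examined. The direction of this list against Ago2 fl/fl was known from earlier results of these libraries and is no independent evidence. Of its 10 genes, 9 were called higher in Ago2 ADH and 9 in Ago2 null, Hdac2 being the exception in each. Over all genes tested these shares were 20.8% and 18.6%. Between Ago2 ADH and Ago2 null, 0 of 10 were called by edgeR and 0 had an unadjusted p under 0.05, beside 0.153% and 10% of all genes. Counts of 0 in a list of this size are near that background. Log2 fold changes ran from -0.07 to 0.10 with SEs of 0.0570 to 0.0868. Vav3, a guanine nucleotide exchange factor gene, had 183, 195 and 187 CPM in Ago2 ADH and 171 and 217 CPM in Ago2 null, beside 5.24 to 5.54 CPM in Ago2 fl/fl. Rangap1, which activates the RAN GTPase, had 115, 121 and 109.8 CPM against 117 and 109 CPM, beside 10.4 to 11.8 CPM. The groups overlapped in both genes. Lcp1, an actin-bundling protein gene with the highest log2 fold change of the list, had 497, 508 and 524 CPM against 496 and 452 CPM, beside 71.9 to 82.1 CPM. Tbcd, a tubulin cofactor gene, had 162, 171 and 156 CPM against 169 and 168 CPM, and Kif4, a kinesin gene, had 969.9 to 1012 CPM against 1016 and 945 CPM.

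The small-RNA machinery held 22 tested genes, of which only Ago2 was called (4.55%, beside 0.153%). The median log2 fold change was 0.08, with 17 of 22 above 0. Tnrc6b, coding for one of the GW182 proteins that bind Argonautes and recruit deadenylases, had 188, 180.1 and 170.3 CPM in Ago2 ADH and 161 and 142 CPM in Ago2 null (log2 fold change 0.24, adjusted p = 0.238 from edgeR), which did not overlap. Its relatives Tnrc6a and Tnrc6c had log2 fold changes of 0.10 and 0.09. Ddx6, a helicase gene of translational repression, had 65.9, 56.6 and 61.3 CPM against 54.0 and 50.5 CPM (adjusted p = 0.396). Tarbp2, the gene of a DICER partner, had 49.9, 52.5 and 43.1 CPM against 54.2 and 60.9 CPM (log2 fold change -0.25, adjusted p = 0.380). Drosha, Dgcr8 and Xpo5, which act before DICER in miRNA maturation, had log2 fold changes of -0.09, -0.25 and 0.16.

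Among 36 deadenylation and decapping genes, 0 were called by edgeR (0.153% of all genes were) and 5 had an unadjusted p under 0.05 (13.9%, beside 10% of all genes), with a median log2 fold change of 0.02. Cnot1, the scaffold of the CCR4-NOT deadenylase, had 445, 396 and 442 CPM in Ago2 ADH and 391 and 358 CPM in Ago2 null (adjusted p = 0.351), and its catalytic partner Cnot6l had 403, 409 and 437 CPM against 370.4 and 382 CPM (adjusted p = 0.478). Both were above in every Ago2 ADH library and both were below Ago2 fl/fl, which had 616 to 636 CPM of Cnot1 and 535 to 548 CPM of Cnot6l. Lsm1, of the decapping complex, lay the other way at -0.25 (adjusted p = 0.325), and Edc4 was at 0.16.

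The other lists held no called gene, which is near the background of 0.153% for lists of their size, and 10% of all genes had an unadjusted p under 0.05. For spindle assembly, 0 of 50 were called by edgeR and 2 had an unadjusted p under 0.05, Haus8 at -0.29 and Kif18a at -0.23, with a median log2 fold change of -0.0057. Haus8, of the augmin complex that branches microtubules, had 104, 110.4 and 98.5 CPM against 117 and 137 CPM (adjusted p = 0.194). For the piRNA pathway, 0 of 18 were called and 1 had an unadjusted p under 0.05, Henmt1 at -0.22. For sensing of double-stranded RNA and the interferon response, these were 0 and 2 of 17, with Ifit1 at 0.82 (adjusted p = 0.497) and Oas1d at -0.20 (adjusted p = 0.379). Of 80 ribosomal protein genes 0 were called and 13 had an unadjusted p under 0.05, 5 higher and 8 lower, with a median of -0.03. Rps27 had the lowest p of them, with 375, 445 and 370.5 CPM against 328 and 309 CPM (adjusted p = 0.0897). Of 25 oocyte markers 0 were called and 4 had an unadjusted p under 0.05, among them Mos at 0.19 and Khdc3 at -0.22.

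Markers of cells around the oocyte were at low levels and varied between libraries. Of 14 granulosa and cumulus markers tested, 0 were called by edgeR, 4 had an unadjusted p under 0.05 (28.6%, beside 10% of all genes) and the median log2 fold change was 0.11. At 0.153% called over all genes, a count of 0 in a list of this size is near the background. Cyp11a1, the first enzyme of steroid synthesis, had 5.27, 10.2 and 3.11 CPM in Ago2 ADH and 2.42 and 0.845 CPM in Ago2 null (log2 fold change 1.92, adjusted p = 0.0534). Hsd17b1 and Fst lay in the same direction at 1.75 (adjusted p = 0.260) and 1.48 (adjusted p = 0.359), and Ptgs2 lay the other way at -1.07. Cyp19a1, the aromatase gene and a defining granulosa marker, had 28.0, 31.9 and 33.6 CPM against 28.0 and 31.0 CPM, which overlapped. Of 3 stroma and blood markers tested 0 were called, with a median log2 fold change of 0.32, and Pecam1, an endothelial adhesion gene also in the oocyte libraries at 43.5 to 58.8 CPM, was at 0.32 (adjusted p = 0.175). Ccnd2 and Erbb4, which are called, are also active in granulosa and stromal cells, and the part of these cells in their values was not tested.

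Genes that respond to loss of DICER, which removes both miRNAs and endo-siRNAs, were taken from the Dicer WT and Dicer KO libraries, which the direct comparison did not use. In those, 4726 of 13793 genes were called (34.3%), 2294 of them higher in Dicer KO (16.6%) and 2432 lower (17.6%). Of the genes higher in Dicer KO, 6 of 2271 tested were called between Ago2 ADH and Ago2 null (0.264%, beside 0.153% of all genes tested), 2 higher and 4 lower in Ago2 ADH, and the median log2 fold change was -0.0053. Of the genes lower in Dicer KO, 9 of 2409 were called (0.374%, beside the same 0.153%), 7 higher and 2 lower in Ago2 ADH. Of genes tested and not called in Dicer KO, 7 of 8760 were called (0.0799%). The median log2 fold change of the genes lower in Dicer KO was 0.03, with 59.0% above 0, beside 50.2% of all genes tested. In this set 239 genes had an unadjusted p under 0.05 and were higher in Ago2 ADH, and 87 were lower, while genes not called in Dicer KO had 364 and 393. By library, the median deviation of the set was 0.025, 0.017 and 0.0043 in Ago2 ADH and -0.0087 and -0.031 in Ago2 null, on the log2 scale, with an SD within groups of 0.013. The groups did not overlap, but Ago2 ADH replicate 3 and Ago2 null replicate 1 differed by about that SD. Slc4a3 belongs to the set, with 9.26 to 10.4 CPM in Dicer WT and 1.25 to 1.505 CPM in Dicer KO.

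**Figure D5:**
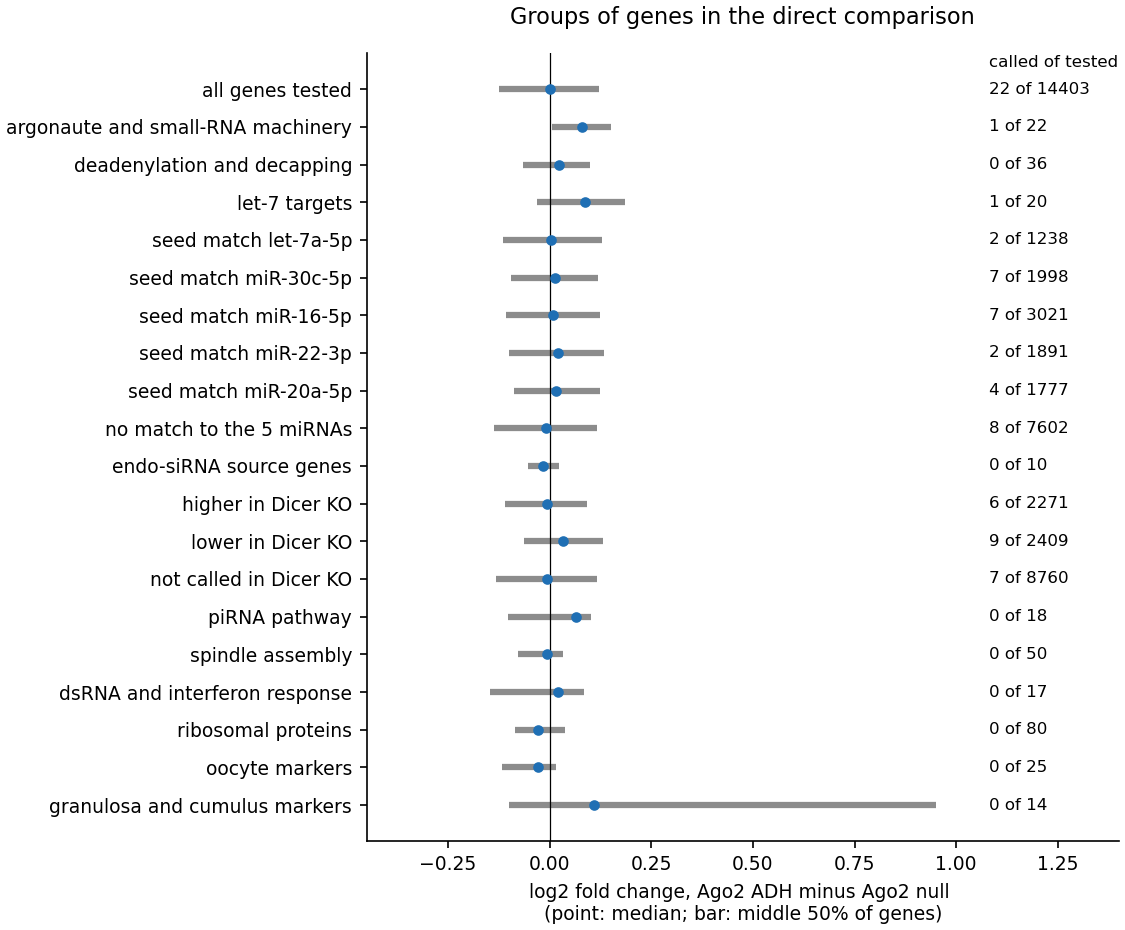
Median log2 fold change of Ago2 ADH minus Ago2 null (points) and the middle 50% of genes (bars) for all genes tested and for the groups of genes named at the left, with the number called of those tested at the right and the 3 tested stroma and blood markers not drawn. The medians drawn lie between -0.03 and 0.11, and the endo-siRNA source genes have the narrowest bar.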

How the data were processed

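The 5 libraries of the direct comparison, with 3 Ago2 fl/fl and 6 Dicer libraries beside them, were grouped by the sample labels. The labels and series design give 2 Ago2 null libraries, where the methods state 3. The deposited values are raw read counts per RefSeq transcript: the authors amplified cDNA with the Ovation RNA-Seq System V2, aligned reads to mm10 (GRCm38) with TopHat2 2.0.7, allowing 100 alignments per read, and counted with HTSeq 0.6.1, intersection-strict and unstranded. DESeq 1.10.0 is also in the submitters' processing notes. Antisense or overlapping genes can therefore share reads, and without molecular identifiers reads are not independent molecules.

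The 5 summary lines of each file were left out. Of 26495 transcripts, 26081 were paired with symbols through RefSeq and 113 through GENCODE, and 301 kept their ID. For 3635 genes with several transcripts, that with the highest mean count over the 5 libraries was kept. Counts were fitted with edgeR 4.0.16 in R 4.3.3 on the libraries compared only (filterByExpr, minimum count 10, minimum total 15, TMM, quasi-likelihood test, Benjamini-Hochberg, FDR 1%), and the SE is the absolute log2 fold change over the square root of F. The biological coefficient of variation was 10.0%. Tables and figures were made with Python 3.11.15, numpy 2.4.6, pandas 2.3.3, scipy 1.17.1 and matplotlib 3.10.9. The test was tried on simulated counts of 14157 genes, 200 of them changed, all with a mean above 1 CPM, and recovered 174 with 4 false calls. DESeq2 1.42.0 recovered 170 with 2. Replicates differed beyond sampling noise (chi-square per degree of freedom 6.24 to 13.9), so each library counts once.

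Genes named are those called at an FDR of 1%, except 1 that is counted and not reported here, the 4 Argonautes and Dicer1, up to 4 genes of lowest p per list, the 10 tested genes nearest Ago2 and up to 10 passing an FDR of 5% only. Other list members were added after their values were seen. Members, lists and tests were chosen with earlier results of these data known. Lists are given as counts and medians with no test. Alternatives were DESeq2, RLE normalization, the filter left off or set to 10 counts in each library, all transcripts, other choices of transcript, Ago2 or all groups in one fit, an FDR of 5%, 8-base sites, a replicate block, and each library left out. Mature sequences of miR-122-5p and miR-1a-3p were not used here.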

Additional observations from a re-analysis of the deposited data

Results flagged for a closer look

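The deposited files also tally reads outside the transcripts, which the comparison did not use, and both tallies were higher in Ago2 ADH and Ago2 null than in the Ago2 fl/fl control libraries. Alignments that were not unique, divided by the count on 1 transcript per gene, had a mean ratio of 2.18 in Ago2 ADH (2.13 to 2.25, SD 0.062, n = 3) and 2.17 in Ago2 null (2.11 to 2.22, n = 2), beside 0.776 in Ago2 fl/fl (0.755 to 0.810). Reads on no transcript had a mean ratio of 0.246 in Ago2 ADH and 0.247 in Ago2 null, beside 0.171 in Ago2 fl/fl. Between Ago2 ADH and Ago2 null, 2-sided exact permutation tests gave p = 0.8 and p = 1, where 3 against 2 libraries cannot go below 0.2. Against Ago2 fl/fl both ratios gave p = 0.1 in Ago2 ADH and 0.2 in Ago2 null, the smallest exact values possible. In the Dicer libraries, the first ratio was 0.534 to 0.736 in WT and 1.29 to 1.63 in KO. The tally counts alignments and does not say which sequences they came from.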

How the results depend on the processing

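The 22 calls became 54 with DESeq2, 78 without a filter, 42 at an FDR of 5% and 4 to 16 with 1 library left out, where the lone Ago2 null library was assumed to vary like the Ago2 ADH libraries. All 22 were among the calls of DESeq2 and of the fit without a filter. Without Ago2 null replicate 2 there were 4 calls, Gpr20, Slc4a3 and Wdfy1 among them, and without Ago2 null replicate 1, Ago2 ADH replicate 1, 2 and 3 there were 9, 11, 16 and 12. RLE normalization gave 22, at least 10 counts in every library 20, all transcripts 23, the Ago2 groups in one fit 25 and all groups 23. Of the 22, 18 were lost with at least 1 library left out, 7 in another alternative and 4 in none, and none changed sign in 14 fits. A minimum of 10 counts in every library left Gpr20 and Erbb4 untested. With the replicate number as a block there were 102 calls, all 22 among them, but same-numbered libraries share only a number (r = 0.056 and 0.027 of their deviations), so pairing is not shown. Medians by seed match moved from 0.0039 to a range of -8.67e-05 to 0.022 for let-7a-5p and from 0.014 to 0.0069 to 0.028 for miR-30c-5p with libraries left out. For miR-20a-5p the range was 0.0071 to 0.024, and 8-base sites gave 0.0068, and 0.023 for miR-16-5p. Medians of genes higher or lower in Dicer KO moved by less than the spread between replicates. The cause of these shifts was not tested. With 5 libraries, changes under 1.5-fold were not simulated.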
